A study of Mus musculus with 16 samples.

Results

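The genes described here are 31 markers of microglia, the resident macrophages of the brain, among the 22180 genes measured with Affymetrix arrays in mouse hippocampus. They were taken by name from the value table, each gene being represented by the probe set that carried its symbol alone and had the highest mean over the 16 arrays, and all 31 were found. By role, 11 were homeostatic genes, which mark the surveying microglia of healthy brain, 12 were general myeloid genes and 8 were genes linked to microglial activation. Microglia survey the tissue through fine processes, and the purinergic receptor P2ry12 steers those processes towards ATP released from damaged or overactive cells. On activation, microglia are known to reduce the transcripts of their surveying state and to raise genes of phagocytosis, chemokine signalling and co-stimulation. Seizures are a strong stimulus for such a shift in the hippocampus.

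The study asked how status epilepticus (SE), a prolonged seizure, acts on the hippocampus of mice that lack the type 2 deiodinase, encoded by Dio2, in astrocytes. Astro-D2KO mice carried floxed Dio2 together with a cre labelled as glial, and the genotype of control mice reads wild type with the same cre. The mice were C57BL/6, 8 to 10 weeks old, and all of them received lithium chloride at 10 mEq/kg, which lowers the seizure threshold. After 18 h, SE mice received pilocarpine at 65 mg/kg, a muscarinic agonist that sets off SE, and saline mice received saline. Each of the 4 groups, Astro-D2KO SE, Astro-D2KO saline, control SE and control saline, held 4 arrays, 1 per mouse by the titles, so p-values measure the spread between these samples. Pilocarpine and seizures came together in every SE mouse and cannot be told apart, and the promoter that drives the cre, the sex of the mice and the time from pilocarpine to dissection were not stated in the labels. In RNA from whole hippocampus, fewer microglia and less of a transcript per microglial cell cannot be told apart either.

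Dio2, the targeted gene, was lower in Astro-D2KO than in control mice under saline (a log2 difference of -1.36, 2.57-fold; two-sided exact permutation p = 0.0286, the smallest that 4 arrays against 4 allow). After SE its difference was -1.41 (exact permutation p = 0.0571), and a pair of arrays went against their labels. The array labelled Astro-D2KO SE replicate 1 stood at 8.91, above the other Astro-D2KO SE arrays at 7.03 to 7.17. The array labelled control SE replicate 4 stood at 7.99, below the other control SE arrays at 9.11 to 9.51. Both doubtful arrays are kept below. Calls that were lost without both are stated for the members and for the genes named by rule from the further microglial lists. Correlations between arrays over all genes were 0.972 to 0.994.

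To show the start-site sequence of members with different behaviour, promoter windows of 300 bases, from 250 bases before to 50 bases after the RefSeq start of each gene, were searched for a pair of motifs on both strands. One was GAGGAA, the core letters bound by PU.1, the myeloid lineage factor that the member Spi1 encodes. The other was TGANTCA, the AP-1 site bound by Fos and Jun dimers. RefSeq windows of build GRCm38.p6 were found for 21 of the 31 members, some of which had more than 1 window. The PU.1 core was present in at least 1 window of 13 of these 21 members, against 28.3% of all 32851 promoter windows, and no printed match overlapped another. It was found in 3 of 7 homeostatic, 8 of 9 myeloid and 2 of 5 activation genes with a window. The AP-1 letters were present in 3 of the 21 members, namely Trem2, Cd68 and Itgax, against 7.8% of all windows. The windows printed here belong to the neighbouring purinergic receptor genes P2ry12 and P2ry13, which were lower after SE, and to Cd53, Cd68 and Gpr84, which were higher. They lie on the minus strand at chr3:59262936-59263235 for P2ry12, chr3:59210833-59211132 for P2ry13, chr3:106790100-106790399 for Cd53, chr11:69666121-69666420 for Cd68 and chr15:103310389-103310688 for Gpr84. Capitals mark the PU.1 core (GAGGAA, or TTCCTC for the other strand) and the AP-1 letters.
P2ry12: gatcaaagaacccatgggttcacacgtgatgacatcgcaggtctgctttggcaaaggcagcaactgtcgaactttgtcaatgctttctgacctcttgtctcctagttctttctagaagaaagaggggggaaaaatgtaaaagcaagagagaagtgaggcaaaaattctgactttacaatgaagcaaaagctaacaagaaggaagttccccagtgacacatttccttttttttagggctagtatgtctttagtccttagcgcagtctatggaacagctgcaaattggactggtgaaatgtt
P2ry13: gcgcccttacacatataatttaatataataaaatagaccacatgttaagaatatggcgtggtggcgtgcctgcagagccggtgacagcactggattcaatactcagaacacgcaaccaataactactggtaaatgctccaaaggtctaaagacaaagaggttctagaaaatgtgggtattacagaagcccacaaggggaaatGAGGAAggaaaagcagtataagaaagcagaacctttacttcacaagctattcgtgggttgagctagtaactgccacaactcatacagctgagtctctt
Cd53: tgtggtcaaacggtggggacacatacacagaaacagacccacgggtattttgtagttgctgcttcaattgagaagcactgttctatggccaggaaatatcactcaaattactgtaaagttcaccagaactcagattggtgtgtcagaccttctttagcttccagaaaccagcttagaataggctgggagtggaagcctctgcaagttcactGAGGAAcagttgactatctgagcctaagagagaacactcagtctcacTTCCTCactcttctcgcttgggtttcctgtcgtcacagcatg
Cd68: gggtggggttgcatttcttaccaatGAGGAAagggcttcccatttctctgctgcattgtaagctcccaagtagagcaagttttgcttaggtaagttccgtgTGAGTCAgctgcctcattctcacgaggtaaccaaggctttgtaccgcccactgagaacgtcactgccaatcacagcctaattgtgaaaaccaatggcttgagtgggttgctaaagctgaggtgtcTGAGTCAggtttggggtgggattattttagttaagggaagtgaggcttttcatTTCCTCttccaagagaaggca
Gpr84: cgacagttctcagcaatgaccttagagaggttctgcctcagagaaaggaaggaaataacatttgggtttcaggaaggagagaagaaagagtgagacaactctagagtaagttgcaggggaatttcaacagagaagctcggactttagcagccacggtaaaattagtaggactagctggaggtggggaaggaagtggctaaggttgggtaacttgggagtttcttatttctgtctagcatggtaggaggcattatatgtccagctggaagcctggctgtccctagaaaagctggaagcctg
The Cd68 window held 2 PU.1 cores and 2 AP-1 matches, the Cd53 window held 2 PU.1 cores and the P2ry13 window held 1. The P2ry12 and Gpr84 windows held neither set of letters. A match describes the sequence and was not tested as a bound site.

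After SE, 10 of the 11 homeostatic genes had estimates below 0 in Astro-D2KO mice, and 10 did so in control mice. A set of activation genes was higher in both genotypes. Levels are log2 values of background-corrected and quantile-normalised arrays, so a change of 1 is 2-fold. In Astro-D2KO mice limma called 8 of the 11 homeostatic genes lower and none higher, and in control mice it called 5 lower and none higher (Benjamini-Hochberg adjusted p under 0.05 over all 22180 genes). Among all genes, 12.6% were called lower in Astro-D2KO mice and 13.7% in control mice. The median log2 change of the homeostatic genes was -0.48 in Astro-D2KO mice and -0.37 in control mice, against a median near 0 over all genes (-0.01 and -0.02). Of the 8 activation genes, 4 were called higher in Astro-D2KO mice and 6 in control mice and none lower, where 7.49% and 8.42% of all genes were called higher. Their median changes were 0.55 in Astro-D2KO mice and 0.69 in control mice. Of the 12 myeloid genes, 1 was called higher in Astro-D2KO mice and 2 in control mice, with medians of -0.01 and 0.11. Over all 31 members, 5 were called higher and 8 lower in Astro-D2KO mice, and 8 higher and 5 lower in control mice. The members and their roles were chosen with earlier results of these data known, so these counts are not independent evidence.

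**Figure D1:**
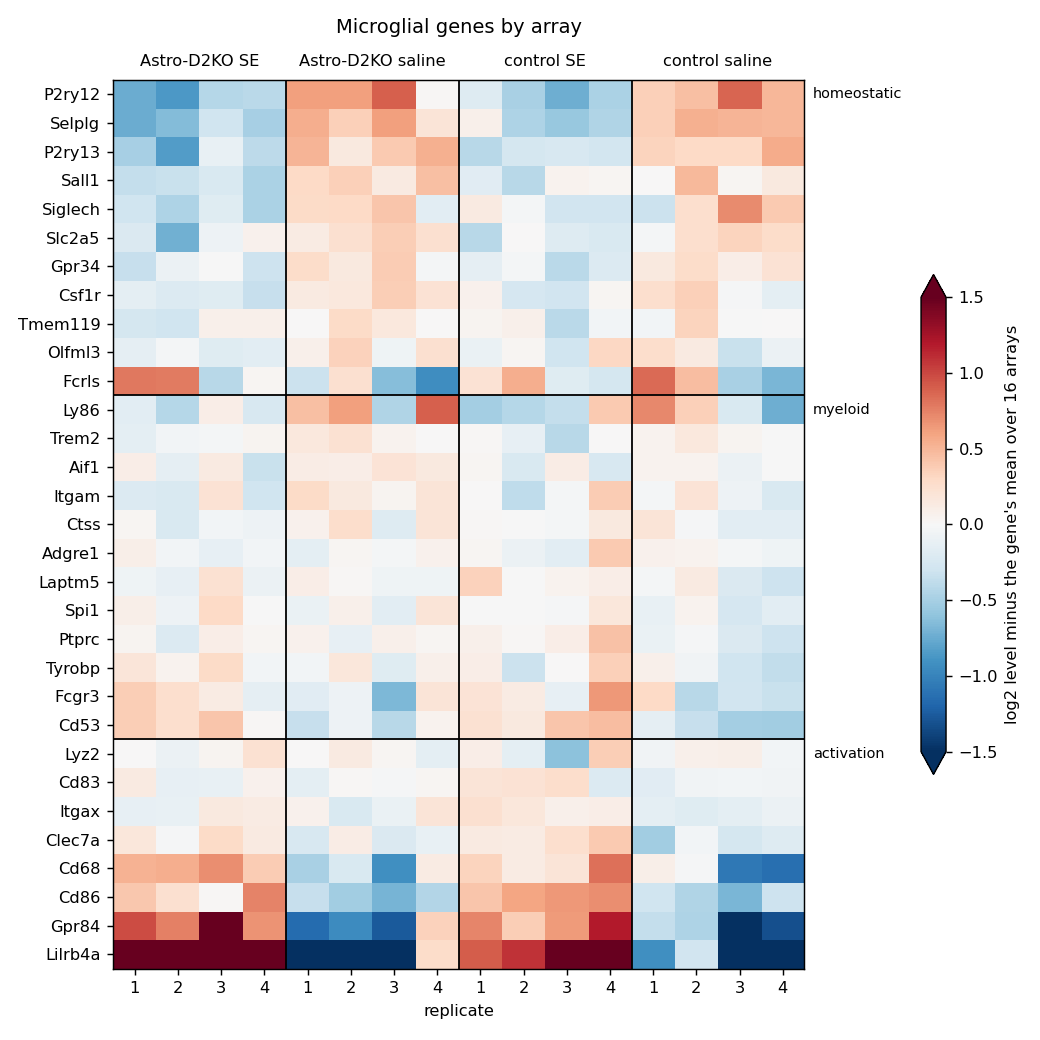
Heat map of the 31 genes (down the page, by role) in the 16 arrays (across, in 4 groups of 4). Colour is the log2 level minus the gene's mean over the 16 arrays, and colours end at a deviation of 1.5 either way. Homeostatic genes such as P2ry12 are mostly blue in SE and red in saline arrays, and Lilrb4a, Gpr84, Cd86 and Cd68 mostly run the other way.

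P2ry12, an ADP receptor on the processes of resting microglia, had the largest fall among the members in both genotypes. Its log2 level was 6.84, 6.73, 7.16 and 7.18 in the Astro-D2KO SE arrays, against 8.20, 8.20, 8.48 and 7.60 in the Astro-D2KO saline arrays. In control mice it was 7.38, 7.09, 6.85 and 7.10 after SE, against 7.94, 8.03, 8.45 and 8.08 under saline. Every SE array lay below every saline array of its genotype. The log2 change was -1.14 ± 0.17 (standard error of the fit) in Astro-D2KO mice, a 2.21-fold fall (limma adjusted p = 0.000116), and -1.02 ± 0.17 in control mice, a 2.02-fold fall (adjusted p = 0.000302). Selplg, the P-selectin ligand PSGL-1, which microglia also carry, stood at 6.63, 6.72, 7.08 and 6.87 in Astro-D2KO SE arrays, against 7.92, 7.74, 7.99 and 7.56 in Astro-D2KO saline arrays. In control mice Selplg was 7.45, 6.91, 6.80 and 6.92 after SE, against 7.73, 7.91, 7.88 and 7.88 under saline. The groups did not overlap in either genotype, and the changes were -0.98 ± 0.13 in Astro-D2KO mice (limma adjusted p = 5.87e-05) and -0.83 ± 0.13 in control mice (adjusted p = 0.000247). Selplg had another, dimmer probe set with a mean of 5.85, whose change was -0.16 in Astro-D2KO mice (exact permutation p = 0.371) and -0.10 in control mice (exact permutation p = 0.2). Its estimates also lay below 0 but were much smaller, so the probe sets disagreed in the size of the change. With both averaged, the changes were -0.57 in Astro-D2KO mice and -0.46 in control mice, and both were called.

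P2ry13, another ADP receptor next to P2ry12 on chromosome 3 with no protein-coding gene between them, was lower as well. It stood at 6.27, 5.94, 6.67 and 6.38 in Astro-D2KO SE arrays, against 7.28, 6.92, 7.17 and 7.30 in Astro-D2KO saline arrays. In control mice it stood at 6.35, 6.51, 6.53 and 6.50 after SE, against 7.10, 7.08, 7.07 and 7.33 under saline. Again no SE array reached a saline array of its genotype, and P2ry13 changed by -0.85 ± 0.13 in Astro-D2KO mice (limma adjusted p = 0.000118) and -0.67 ± 0.13 in control mice (adjusted p = 0.000869). Another G protein-coupled receptor of the surveying state, the lysophosphatidylserine receptor Gpr34, was among the dim members. Gpr34 stood at 4.60, 4.86, 4.94 and 4.64 in Astro-D2KO SE arrays, against 5.22, 5.10, 5.33 and 4.91 in Astro-D2KO saline arrays. In control mice Gpr34 stood at 4.81, 4.91, 4.55 and 4.74 after SE, against 5.09, 5.22, 5.04 and 5.16 under saline. Its groups overlapped in Astro-D2KO mice, where saline replicate 4 lay below SE replicate 3, and not in control mice. The change of Gpr34 was -0.38 ± 0.10 in Astro-D2KO mice (limma adjusted p = 0.0149) and -0.37 ± 0.10 in control mice (adjusted p = 0.0148). In Astro-D2KO mice its call was lost without saline replicate 3, without SE replicate 1 or without both doubtful arrays (adjusted p = 0.0571), and in control mice without SE replicate 3 (adjusted p = 0.0565).

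**Figure D2:**
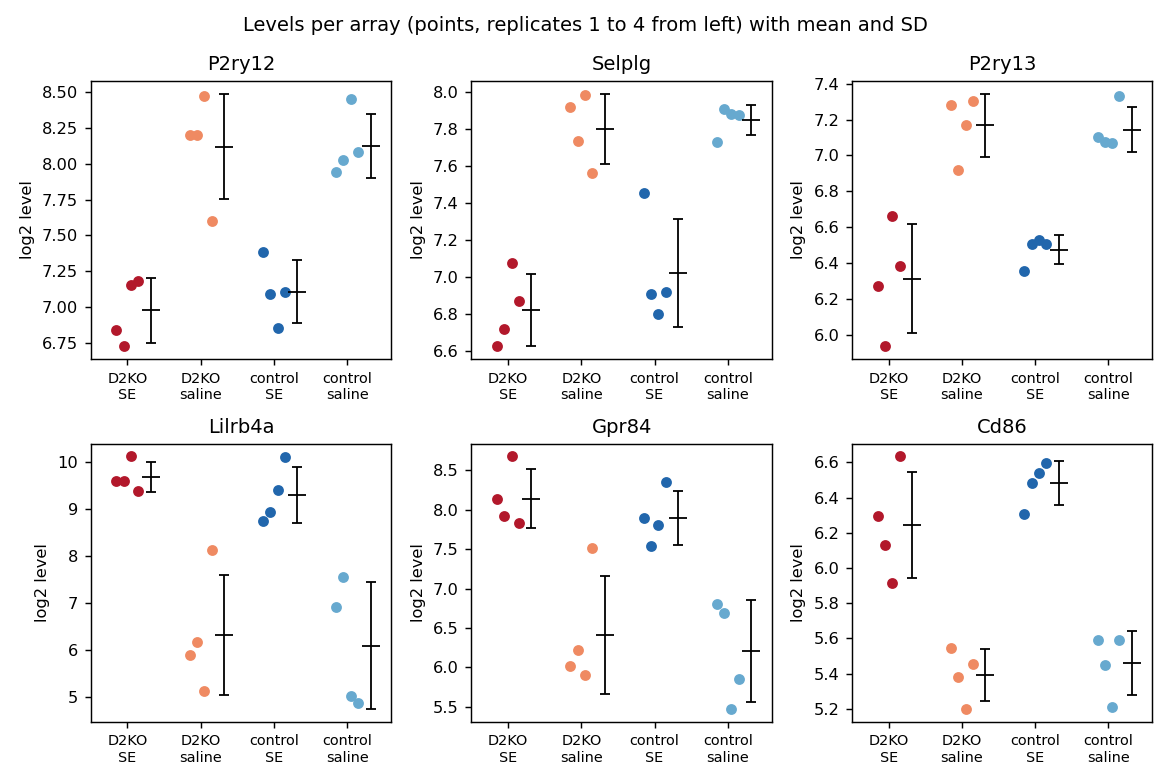
Log2 levels of P2ry12, Selplg, P2ry13, Lilrb4a, Gpr84 and Cd86 in each array (points, replicates 1 to 4 from the left), by group, with the group mean and SD beside them (n = 4). In all 6 genes the SE arrays and the saline arrays of the same genotype do not overlap, and the saline arrays of Lilrb4a spread from 4.87 to 8.13.

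Slc2a5 encodes the fructose transporter GLUT5, which in brain is a microglial transcript. It stood at 5.21, 4.71, 5.35 and 5.49 in Astro-D2KO SE arrays, against 5.55, 5.67, 5.80 and 5.66 in Astro-D2KO saline arrays. In control mice Slc2a5 stood at 5.01, 5.43, 5.23 and 5.19 after SE, against 5.40, 5.68, 5.76 and 5.71 under saline. The Astro-D2KO groups did not overlap, whereas control SE replicate 2 lay just above control saline replicate 1. Slc2a5 changed by -0.48 ± 0.14 in Astro-D2KO mice (limma adjusted p = 0.0192) and by -0.42 ± 0.14 in control mice (adjusted p = 0.0364). The Astro-D2KO call was lost without saline replicate 3 or SE replicate 2. The control call was lost on leaving out any of 6 arrays in turn (control saline replicates 2, 3 and 4 and control SE replicates 1, 3 and 4, with changes of -0.42 to -0.35), without both doubtful arrays, and with arrays centred on their medians (-0.39, adjusted p = 0.0544).

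A further 3 homeostatic genes, Csf1r, Sall1 and Siglech, were called in Astro-D2KO mice and not in control mice, but none of them was called for a difference between the responses. Csf1r, the receptor for the growth factors CSF1 and IL-34 on which microglia depend, stood at 8.21, 8.14, 8.17 and 8.00 in Astro-D2KO SE arrays, against 8.49, 8.50, 8.71 and 8.57 in Astro-D2KO saline arrays. In control mice Csf1r stood at 8.41, 8.10, 8.07 and 8.38 after SE, against 8.60, 8.71, 8.33 and 8.21 under saline. The Astro-D2KO groups were separate and the control groups overlapped. The change of Csf1r was -0.44 ± 0.11 in Astro-D2KO mice (limma adjusted p = 0.00911) and -0.23 ± 0.11 in control mice (adjusted p = 0.169), and the difference between these responses was -0.21 with a 95% interval of -0.54 to 0.12. Sall1, a transcription factor that maintains microglial identity, stood at 5.77, 5.79, 5.89 and 5.65 in Astro-D2KO SE arrays, against 6.42, 6.48, 6.25 and 6.57 in Astro-D2KO saline arrays. In control mice Sall1 stood at 5.95, 5.71, 6.17 and 6.15 after SE, against 6.12, 6.61, 6.15 and 6.27 under saline. Here too the groups were apart in Astro-D2KO mice and overlapped in control mice. Sall1 changed by -0.66 ± 0.12 in Astro-D2KO mice (limma adjusted p = 0.000748) and -0.29 ± 0.12 in control mice (adjusted p = 0.0897).

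Siglech, a sialic acid-binding receptor of microglia, stood at 6.18, 6.01, 6.29 and 6.00 in Astro-D2KO SE arrays, against 6.76, 6.78, 6.89 and 6.32 in Astro-D2KO saline arrays. In control mice Siglech stood at 6.62, 6.45, 6.19 and 6.19 after SE, against 6.15, 6.72, 7.19 and 6.87 under saline. Control saline replicate 1 was the lowest of all control arrays, so those groups overlapped, while the Astro-D2KO groups did not. Siglech changed by -0.57 ± 0.17 in Astro-D2KO mice (limma adjusted p = 0.0288) and -0.37 ± 0.17 in control mice (adjusted p = 0.148). The Astro-D2KO call was lost without saline replicate 1, 2 or 3, without SE replicate 2 or 4 (changes of -0.69 to -0.50 over all arrays left out in turn), or without both doubtful arrays (-0.59, adjusted p = 0.0502). Without control saline replicate 1 the control change was -0.57 and was called (adjusted p = 0.0115).

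The other 3 homeostatic genes were not called. Tmem119, a transmembrane protein used as a microglia-specific marker, stood at 6.01, 5.98, 6.35 and 6.35 in Astro-D2KO SE arrays, against 6.28, 6.56, 6.43 and 6.28 in Astro-D2KO saline arrays. In control mice Tmem119 stood at 6.31, 6.35, 5.87 and 6.23 after SE, against 6.23, 6.61, 6.27 and 6.28 under saline. The groups of Tmem119 overlapped in both genotypes, and its changes of -0.22 (95% interval -0.48 to 0.05) in Astro-D2KO mice and -0.16 (-0.42 to 0.10) in control mice did not pass, although its neighbour Selplg on chromosome 5 did. Olfml3, a secreted olfactomedin-like protein, had changes of -0.28 in Astro-D2KO mice and -0.01 in control mice. Fcrls, an Fc receptor-like gene of microglia, was the 1 homeostatic gene with estimates above 0, at 0.71 (95% interval -0.01 to 1.42) in Astro-D2KO mice and 0.05 (-0.67 to 0.76) in control mice. Fcrls varied widely within groups, from 7.24 to 8.45 in Astro-D2KO SE arrays against 6.73 to 7.90 in Astro-D2KO saline arrays, and from 7.40 to 8.20 in control SE arrays against 6.97 to 8.51 in control saline arrays. In every group replicates 1 and 2 stood above replicates 3 and 4, a pattern noticed after the values were seen. With replicate numbers as a block, Fcrls was called higher in Astro-D2KO mice (0.71, limma adjusted p = 0.00757) and averaged over genotypes (0.38, adjusted p = 0.0214). It was not called in control mice alone.

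**Figure D3:**
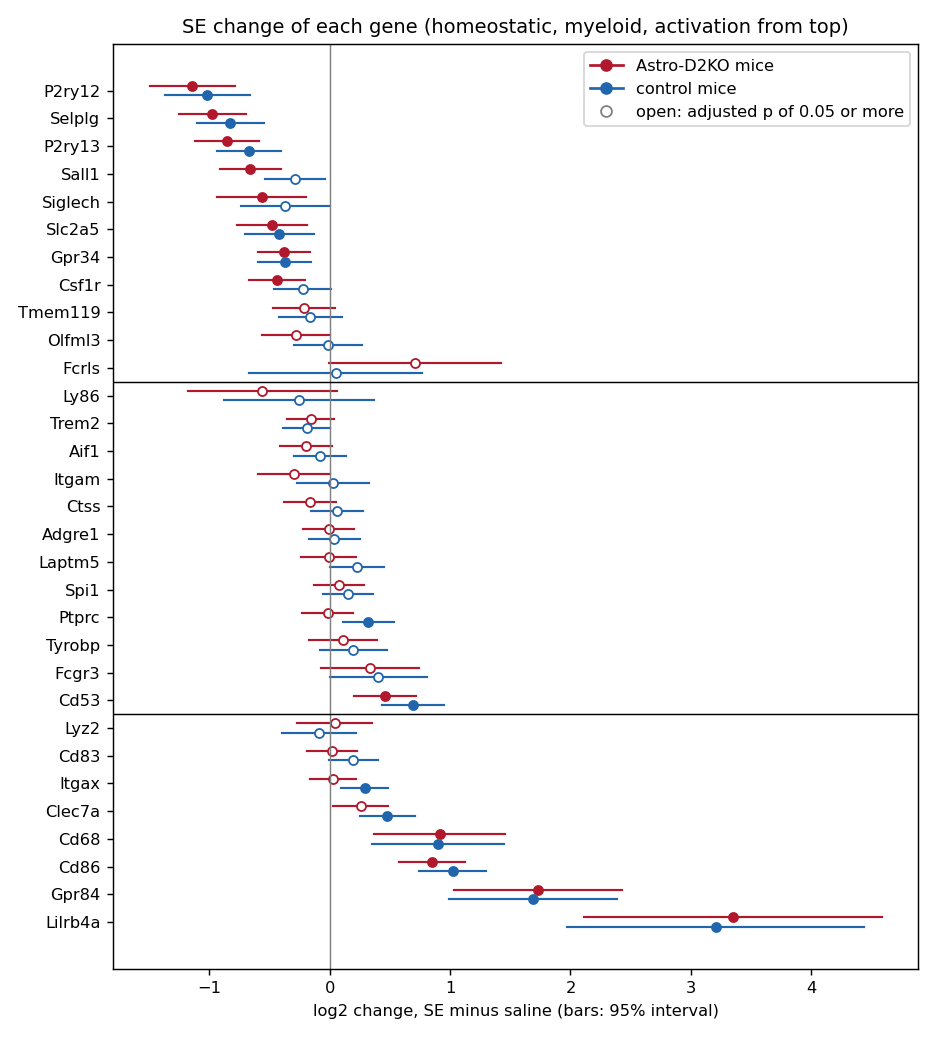
Log2 change after SE, SE minus saline, of each of the 31 genes in Astro-D2KO and control mice, with 95% intervals; filled points were called and open points were not. Homeostatic genes are at the top, myeloid genes in the middle and activation genes at the bottom, where Lilrb4a reaches 3.35 in Astro-D2KO and 3.21 in control mice.

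Among the activation genes, Lilrb4a had the largest change of all 31 members. It encodes an inhibitory leukocyte immunoglobulin-like receptor of myeloid cells. Lilrb4a stood at 9.61, 9.61, 10.13 and 9.38 in Astro-D2KO SE arrays, against 5.90, 6.17, 5.12 and 8.13 in Astro-D2KO saline arrays. In control mice Lilrb4a stood at 8.76, 8.94, 9.41 and 10.11 after SE, against 6.93, 7.57, 5.03 and 4.87 under saline. All SE arrays were above all saline arrays, and the saline arrays differed widely among themselves. The change of Lilrb4a was 3.35 ± 0.59 in Astro-D2KO mice, 10.2-fold (limma adjusted p = 0.000598), and 3.21 ± 0.59 in control mice, 9.23-fold (adjusted p = 0.000736). Another Lilrb4a probe set also names the closely related Lilr4b and was left out, and cross-hybridisation between these paralogues was not tested.

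Gpr84, a receptor for medium-chain fatty acids that inflammatory stimuli induce in macrophages and microglia, followed. It stood at 8.14, 7.92, 8.68 and 7.84 in Astro-D2KO SE arrays, against 6.01, 6.22, 5.91 and 7.51 in Astro-D2KO saline arrays. In control mice Gpr84 stood at 7.90, 7.54, 7.80 and 8.35 after SE, against 6.81, 6.70, 5.47 and 5.85 under saline. There was no overlap, and Gpr84 changed by 1.73 ± 0.33 (3.32-fold, limma adjusted p = 0.00126) in Astro-D2KO mice and 1.69 ± 0.33 (3.23-fold, adjusted p = 0.00127) in control mice. Cd86, a co-stimulatory ligand for T cells, stood at 6.30, 6.13, 5.92 and 6.63 in Astro-D2KO SE arrays, against 5.54, 5.38, 5.20 and 5.45 in Astro-D2KO saline arrays. In control mice Cd86 stood at 6.31, 6.48, 6.54 and 6.60 after SE, against 5.59, 5.45, 5.21 and 5.59 under saline. Its groups were separate and its saline arrays lay close together, and Cd86 changed by 0.85 ± 0.13 in Astro-D2KO mice (limma adjusted p = 0.000195) and 1.02 ± 0.13 in control mice (adjusted p = 2.86e-05).

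Cd68, a lysosomal glycoprotein of phagocytes, stood at 9.16, 9.19, 9.34 and 9.03 in Astro-D2KO SE arrays, against 8.16, 8.41, 7.73 and 8.77 in Astro-D2KO saline arrays. In control mice Cd68 stood at 8.98, 8.76, 8.83 and 9.47 after SE, against 8.73, 8.63, 7.58 and 7.52 under saline. The groups did not overlap, but control saline replicates 1 and 2 and Astro-D2KO saline replicate 4 came near the SE arrays. Cd68 changed by 0.91 ± 0.26 in Astro-D2KO mice and 0.90 ± 0.26 in control mice (limma adjusted p = 0.0181 in each). The Astro-D2KO call was lost without saline replicate 3 (0.73, adjusted p = 0.0696) or SE replicate 3 (adjusted p = 0.0507). The control call was lost without saline replicate 3 (0.72, adjusted p = 0.0695) or 4 (0.70, adjusted p = 0.0661), without SE replicate 4 (0.75, adjusted p = 0.0602), or without both doubtful arrays (0.75, adjusted p = 0.0717).

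The remaining called activation genes were Clec7a and Itgax, both in control mice. Clec7a, the beta-glucan receptor dectin-1, stood at 5.51, 5.32, 5.63 and 5.48 in Astro-D2KO SE arrays, against 5.10, 5.45, 5.13 and 5.23 in Astro-D2KO saline arrays. In control mice Clec7a stood at 5.47, 5.47, 5.59 and 5.73 after SE, against 4.82, 5.31, 5.07 and 5.15 under saline. The control groups were separate and the Astro-D2KO groups overlapped through saline replicate 2, without which the Astro-D2KO change was called (0.33, adjusted p = 0.0477). Clec7a changed by 0.26 ± 0.11 in Astro-D2KO mice (limma adjusted p = 0.108) and 0.48 ± 0.11 in control mice (adjusted p = 0.00382). Itgax, the integrin CD11c, stood at 5.36, 5.38, 5.63 and 5.61 in Astro-D2KO SE arrays, against 5.55, 5.26, 5.38 and 5.67 in Astro-D2KO saline arrays. In control mice Itgax stood at 5.73, 5.66, 5.56 and 5.58 after SE, against 5.33, 5.31, 5.33 and 5.40 under saline. Only the control groups of Itgax were separate, with a change of 0.29 ± 0.092 (limma adjusted p = 0.0306), against 0.03 in Astro-D2KO mice (adjusted p = 0.888). Leaving out control saline replicate 1, 2 or 3 or control SE replicate 1 or 2 ended that call. Cd83, a maturation marker of antigen-presenting cells, and Lyz2, the macrophage lysozyme, were not called in either genotype, with changes between -0.09 and 0.20. Without control SE replicate 4, where Cd83 stood at 6.11, its control change was 0.30 and was called (adjusted p = 0.0141).

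Of the 12 general myeloid genes, 8 were called in none of the contrasts. Cd53, a tetraspanin of leukocytes, was the exception that was called in both genotypes. It stood at 7.49, 7.36, 7.53 and 7.14 in Astro-D2KO SE arrays, against 6.77, 7.03, 6.69 and 7.17 in Astro-D2KO saline arrays. In control mice Cd53 stood at 7.34, 7.26, 7.53 and 7.57 after SE, against 6.98, 6.77, 6.60 and 6.59 under saline. The Astro-D2KO groups overlapped by 1 array and the control groups were separate. Cd53 changed by 0.46 ± 0.12 in Astro-D2KO mice (limma adjusted p = 0.0122) and 0.69 ± 0.12 in control mice (adjusted p = 0.000556). Ptprc, the pan-leukocyte phosphatase CD45, stood at 5.90, 5.66, 5.96 and 5.89 in Astro-D2KO SE arrays, against 5.92, 5.73, 5.93 and 5.89 in Astro-D2KO saline arrays. In control mice Ptprc stood at 5.94, 5.88, 5.96 and 6.30 after SE, against 5.77, 5.85, 5.64 and 5.55 under saline. Ptprc thus differed in control mice by 0.32 ± 0.10 (limma adjusted p = 0.0293) with separate groups, while its Astro-D2KO groups had nearly the same values (-0.02, adjusted p = 0.938). The control call of Ptprc was lost without control saline replicate 3 or 4 or control SE replicate 4 (0.23, adjusted p = 0.0963), with array weights, with the control groups fitted alone and without both doubtful arrays.

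Averaged over the genotypes, limma called 7 members higher and 9 lower, where 12.1% of all genes were called higher and 20.6% lower. This average added a pair of myeloid genes that neither genotype called alone. Fcgr3, an activating Fc receptor for IgG, stood at 7.24, 7.11, 6.99 and 6.73 in Astro-D2KO SE arrays, against 6.69, 6.79, 6.20 and 7.05 in Astro-D2KO saline arrays. In control mice Fcgr3 stood at 7.08, 6.99, 6.75 and 7.52 after SE, against 7.17, 6.45, 6.57 and 6.54 under saline. The groups overlapped in both genotypes, and its averaged change was 0.37 ± 0.14 (limma adjusted p = 0.0454). Without control saline replicate 1 the control change of Fcgr3 was 0.56 and was called (limma adjusted p = 0.0401). Trem2, a lipid-sensing receptor that signals through the product of Tyrobp, stood at 6.95, 7.05, 7.06 and 7.13 in Astro-D2KO SE arrays, against 7.26, 7.33, 7.15 and 7.10 in Astro-D2KO saline arrays. In control mice Trem2 stood at 7.11, 6.97, 6.67 and 7.11 after SE, against 7.15, 7.25, 7.14 and 7.08 under saline. Trem2 had overlapping groups and an averaged change of -0.18 ± 0.066 (limma adjusted p = 0.0497). The call of Fcgr3 was lost on leaving out any of 12 of the 16 arrays (all but Astro-D2KO SE replicate 4, Astro-D2KO saline replicate 4, control SE replicate 3 and control saline replicate 1), with changes of 0.29 to 0.45 over the 16, and without both doubtful arrays (0.26, adjusted p = 0.167). That of Trem2 was lost on leaving out any of 11 (all but Astro-D2KO SE replicate 4, Astro-D2KO saline replicate 4, control SE replicates 1 and 4 and control saline replicate 4), with changes of -0.20 to -0.13, and without both doubtful arrays (-0.18, adjusted p = 0.0582). Trem2 also lost its call with arrays centred on their medians (adjusted p = 0.0814) or with quantile normalisation repeated (-0.11, adjusted p = 0.227).

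The myeloid genes without a call in any contrast were Aif1, Itgam, Spi1, Laptm5, Ctss, Adgre1, Ly86 and Tyrobp. Aif1, whose product IBA1 is the standard stain for microglia, stood at 6.02, 5.78, 6.05 and 5.58 in Astro-D2KO SE arrays, against 6.03, 6.01, 6.12 and 6.06 in Astro-D2KO saline arrays. In control mice Aif1 stood at 5.95, 5.70, 6.03 and 5.68 after SE, against 5.97, 5.97, 5.83 and 5.91 under saline. The groups of Aif1 overlapped, and its changes were -0.20 (95% interval -0.42 to 0.02) in Astro-D2KO mice and -0.08 (-0.30 to 0.14) in control mice. Spi1, which encodes PU.1, had changes of 0.07 (-0.13 to 0.28) in Astro-D2KO mice and 0.15 (-0.06 to 0.36) in control mice. Tyrobp, the signalling adaptor of Trem2, had changes of 0.11 and 0.20, and Ctss, the lysosomal protease cathepsin S, had changes of -0.16 and 0.06. Itgam, the complement receptor integrin CD11b, differed by -0.30 in Astro-D2KO mice and 0.03 in control mice. Laptm5, a lysosomal membrane protein, differed by -0.01 and 0.23, and Adgre1, an adhesion receptor used as a macrophage marker, by -0.01 and 0.04. Ly86, the MD-1 partner of the receptor CD180, had wide intervals, with -0.56 (-1.18 to 0.06) in Astro-D2KO mice and -0.26 (-0.88 to 0.37) in control mice. Without Astro-D2KO saline replicate 3, Ly86 was called lower in Astro-D2KO mice (-0.84, limma adjusted p = 0.0463) and averaged over genotypes (-0.55, adjusted p = 0.0338). Its averaged change was also called without control saline replicate 4 (-0.53, limma adjusted p = 0.0447).

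The members called after SE in Astro-D2KO mice and in control mice overlapped, in contrasts of separate mice that share 1 estimate of the spread per gene. All 5 genes called lower in control mice (P2ry12, P2ry13, Selplg, Gpr34 and Slc2a5) were among the 8 called lower in Astro-D2KO mice. All 5 genes called higher in Astro-D2KO mice (Cd53, Cd68, Cd86, Lilrb4a and Gpr84) were among the 8 called higher in control mice. The share of all genes called in both genotypes was not counted, so this overlap is not shown to be particular to the 31 genes. Of the 31 genes, 4 had all Astro-D2KO SE arrays above all Astro-D2KO saline arrays and 7 had all below, where 9.54% and 15.1% of all genes did so. In control mice 8 genes had all SE arrays above all saline arrays and 4 had all below, where 8.46% and 13.7% of all genes did so.

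The average deviation of the 11 homeostatic genes from their 16-array means was -0.26 ± 0.06 (log2, SD over 4 arrays) in Astro-D2KO SE arrays, against 0.22 ± 0.10 in Astro-D2KO saline arrays. In control mice it was -0.17 ± 0.11 after SE, against 0.22 ± 0.09 under saline. For the 8 activation genes it was 0.49 ± 0.10 in Astro-D2KO SE arrays, against -0.41 ± 0.33 in Astro-D2KO saline arrays, and 0.44 ± 0.18 in control SE arrays, against -0.52 ± 0.33 in control saline arrays. Every SE array lay below every saline array on the homeostatic average and above every saline array on the activation average. The myeloid average, by contrast, was 0.01 ± 0.11 in Astro-D2KO SE arrays, against 0.04 ± 0.14 in Astro-D2KO saline arrays, and 0.04 ± 0.16 in control SE arrays, against -0.09 ± 0.17 in control saline arrays. These averages describe the lists and were given no test. The saline arrays were spread more widely on the activation average than on the homeostatic one. Astro-D2KO saline replicate 4 had the highest activation average under saline (0.03) and the lowest homeostatic average under saline (0.07).

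**Figure D4:**
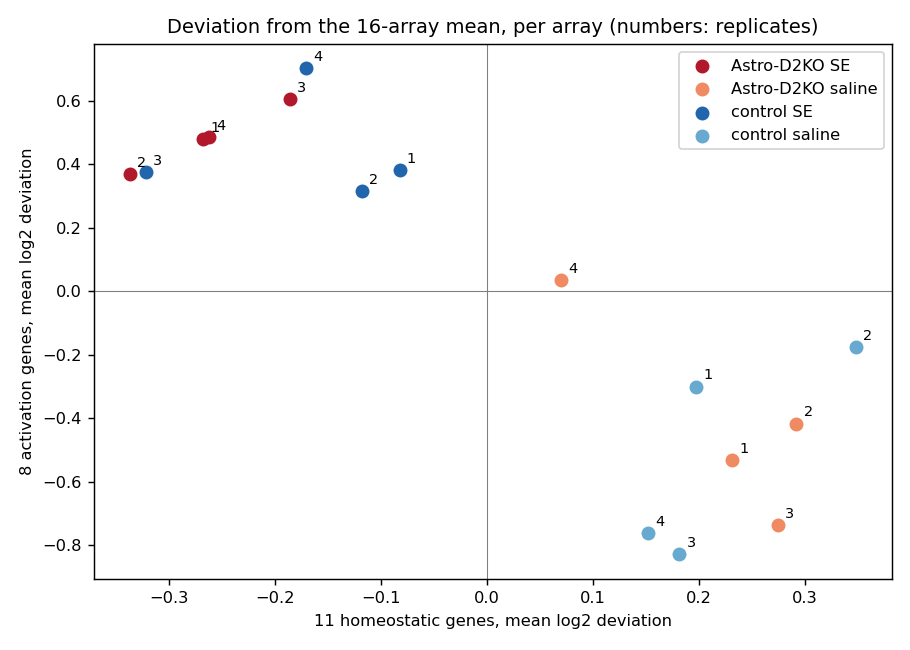
Mean log2 deviation of the 11 homeostatic genes (across) and of the 8 activation genes (up) from their 16-array means, 1 point per array with its replicate number, coloured by group. SE arrays lie at the upper left, with activation averages of 0.32 to 0.70, and saline arrays at the lower right, with activation averages of -0.83 to 0.03.

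Single genes showed the spread of the saline arrays. Control saline replicates 1 and 2 and Astro-D2KO saline replicate 4 had the 3 highest saline levels of Lilrb4a, Gpr84 and Cd68, a pattern noticed after the values were seen. The same arrays had the 3 highest saline levels of the chemokine gene Ccl3, which stood at 5.73, 5.77, 6.00 and 7.71 in Astro-D2KO saline arrays and at 6.23, 7.11, 4.90 and 6.03 in control saline arrays. They also had the 3 highest saline levels of Fos, at 5.52, 6.07, 5.14 and 6.93 in Astro-D2KO saline arrays and 6.27, 6.14, 5.51 and 5.30 in control saline arrays. Npas4, an activity-dependent gene of neurons, did not share the order, with 5.80 to 5.97 in Astro-D2KO saline arrays and 5.52 to 6.02 in control saline arrays. What these arrays share was not tested. Without Astro-D2KO saline replicate 4 the Astro-D2KO change of Lilrb4a was 3.95 and that of Gpr84 was 2.10, and over all arrays left out in turn both genes remained called in both genotypes.

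Astro-D2KO mice were also compared with control mice directly, which asks whether the loss of the astrocytic deiodinase went with another microglial profile. Limma called 0 of the 31 members and 0% of the 22180 genes under saline, and 0 members and 0% of all genes after SE. Dio2, the targeted gene, was itself not called in either comparison, with differences of -1.36 under saline and -1.41 after SE. The lack of calls therefore does not show that the genotypes were alike. The comparison after SE also kept both arrays whose Dio2 level went against their labels. Without Astro-D2KO SE replicate 1 the Dio2 difference after SE was -1.86. At an unadjusted p under 0.05, 0 members passed in either comparison, where 3.99% of all genes did under saline and 6.12% after SE. P2ry12 differed by -0.13 (95% interval -0.48 to 0.22) after SE and by -0.01 (-0.36 to 0.35) under saline. Lilrb4a differed by 0.38 ± 0.59 (-0.86 to 1.62) after SE and by 0.23 ± 0.59 under saline. Cd86 had narrower intervals, with -0.24 (-0.51 to 0.04) after SE and -0.07 (-0.34 to 0.21) under saline. For Tmem119 the differences were -0.02 (-0.28 to 0.24) after SE and 0.04 (-0.22 to 0.30) under saline. Aif1 was the 1 member whose Astro-D2KO saline arrays all lay above the control saline arrays, with a difference of 0.14 (-0.08 to 0.36; limma adjusted p = 0.999), where 1.27% of all genes did so. Of the 31 estimates, 11 were above 0 after SE and 24 were above 0 under saline, with medians of -0.07 and 0.11.

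**Figure D5:**
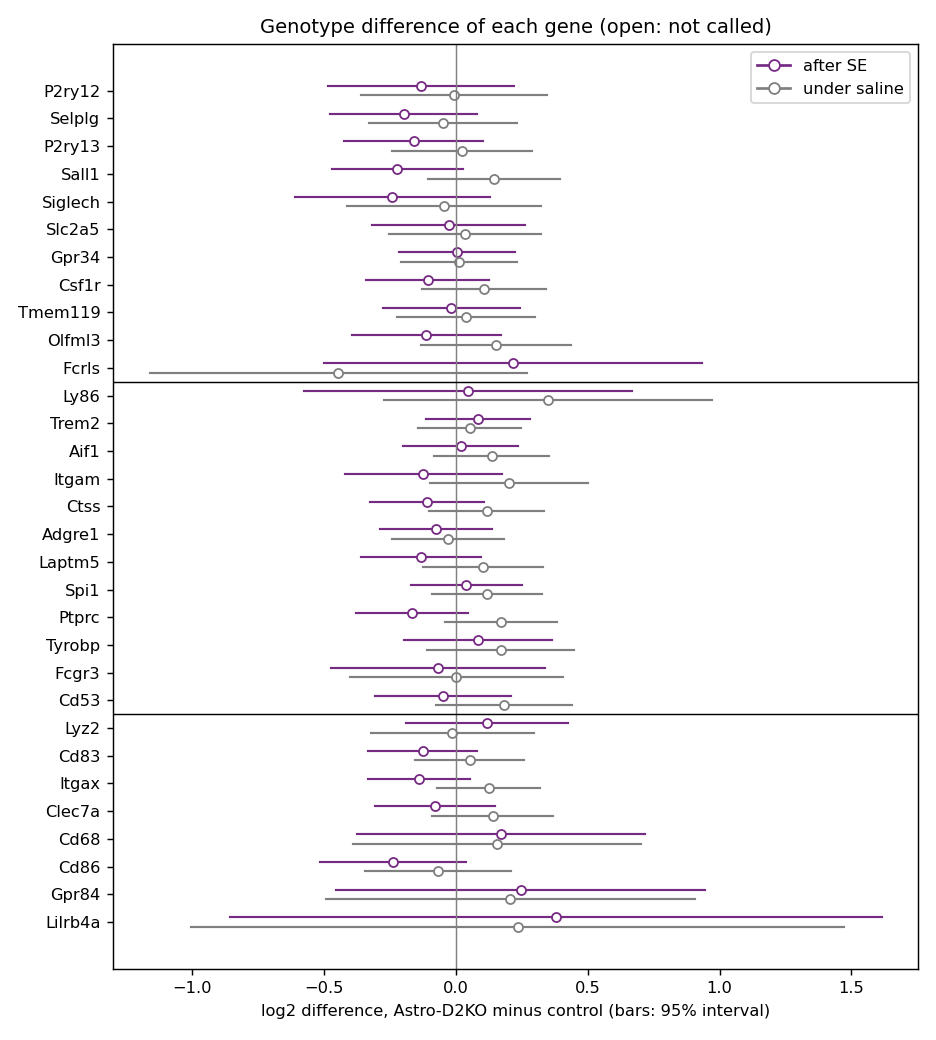
Log2 difference, Astro-D2KO minus control, of each of the 31 genes after SE and under saline, with 95% intervals; all points are open because none was called. Intervals are widest for Lilrb4a (-0.86 to 1.62 after SE) and include 0 for every gene.

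The interaction, which is the SE change in Astro-D2KO mice minus that in control mice, was called for 0 of the 31 members and 0% of all genes by limma. Both doubtful arrays were kept in it. At an unadjusted p under 0.05, 2 members passed, where 4.65% of all genes did. They were Sall1, at -0.37 (95% interval -0.72 to -0.01; limma adjusted p = 0.998), and Ptprc, at -0.34 (-0.64 to -0.04; adjusted p = 0.998). The interaction of P2ry12 was -0.13 (-0.63 to 0.37), that of Clec7a was -0.22 (-0.54 to 0.10) and that of Itgax was -0.26 (-0.54 to 0.01). The estimate lay below 0 for 25 of the 31 genes with a median of -0.15, against a median near 0 over all genes, and each of these genes was measured on the same 16 arrays. A call in 1 genotype alone, as for Csf1r, Sall1, Siglech, Clec7a, Itgax and Ptprc, was therefore not a called difference between genotypes.

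Other genes of microglia, outside the 31, were read from lists by role for the SE change averaged over genotypes, in which 12.1% of all genes were called higher and 20.6% lower. Of 20 further homeostatic genes measured, 4 were called higher and 8 lower. The higher ones were led by Entpd1 (0.80 ± 0.064), the ectonucleotidase CD39, P2ry6 (0.51 ± 0.18), a UDP receptor, and Gpr183 (0.44 ± 0.075), an oxysterol receptor. The lower ones were led by Gpr155 (-0.80 ± 0.061), Golm1 (-0.79 ± 0.073), a Golgi membrane protein, and Hpgd (-0.74 ± 0.22), which degrades prostaglandins. Gpr155 changed by -0.27 when its probe sets were averaged, and P2ry6 lost its call on leaving out any of 8 arrays (Astro-D2KO SE replicates 2 and 3, Astro-D2KO saline replicates 1, 2 and 3, control SE replicate 4 and control saline replicates 3 and 4), or without both doubtful arrays (0.43, adjusted p = 0.0688), where the count of this list called higher was 2. Cx3cr1, the fractalkine receptor, changed by -0.35 ± 0.086 (limma adjusted p = 0.00407) and is named outside the rule because of its role as a microglial marker. The averaged changes of these 20 genes had a median of -0.09, against -0.45 for the 11 homeostatic members.

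Of 13 measured regulators and growth factors of microglia, 3 were called higher and 4 lower, against 12.1% and 20.6% of all genes. Tgfb1 (0.44 ± 0.093), the cytokine that sustains homeostatic microglia, Runx1 (0.27 ± 0.065), a transcription factor, and Tgfbr2 (0.24 ± 0.090), a TGF-beta receptor, were higher. Tgfbr2 lost its call on leaving out any of 12 arrays (all but Astro-D2KO SE replicate 4, Astro-D2KO saline replicates 2 and 4 and control saline replicate 4), without both doubtful arrays (0.23, adjusted p = 0.1) or with replicate numbers as a block (adjusted p = 0.0692). Maf (-0.63 ± 0.086) and Mef2a (-0.29 ± 0.053), both transcription factors, and Il34 (-0.40 ± 0.080), a ligand of Csf1r made largely by neurons, were lower, and Maf changed by -0.35 when its probe sets were averaged. Of 21 genes of the disease-associated microglial profile, 3 were called higher, namely Ch25h (1.56 ± 0.14), which makes an oxysterol, Lgals3 (0.29 ± 0.064), a galectin, and Cst7 (0.19 ± 0.059), a cystatin. Apoe (-0.34 ± 0.099), an apolipoprotein also made by astrocytes, and Ank (-0.27 ± 0.069) were lower. These counts, 3 higher and 2 lower of 21, stand beside 12.1% and 20.6% of all genes, and Ch25h changed by 0.93 when its probe sets were averaged. The call of Apoe was lost with quantile normalisation repeated (-0.27, adjusted p = 0.0596).

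In the list of rapid inflammatory genes, 19 of 20 were called higher and none lower, where 12.1% and 20.6% of all genes were. The list was chosen with earlier results of these data known, so this count is not independent evidence. Their median averaged change was 0.90, against -0.01 over all genes. The largest were Ccl3 (4.05 ± 0.29), Atf3 (3.18 ± 0.13), a stress-induced transcription factor, and Ptgs2 (2.90 ± 0.12), the inducible cyclooxygenase. Several of these genes, Ptgs2 and Atf3 among them, are also induced in neurons.

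Markers of other myeloid cells were counted in the averaged contrast, in which 12.1% of all genes were called higher and 20.6% lower. Of 10 perivascular macrophage markers, 3 were called higher in the averaged contrast, named here after their values were seen: Mrc1 (0.32 ± 0.098), Pf4 (0.22 ± 0.065) and Stab1 (0.19 ± 0.054). The list's mean log2 level was 5.41 to 5.55 in Astro-D2KO SE arrays, against 5.29 to 5.46 in Astro-D2KO saline arrays, and 5.42 to 5.57 in control SE arrays, against 5.33 to 5.49 in control saline arrays. Of 9 monocyte markers, S100a4 was the 1 called higher (0.41 ± 0.10), and Ccr2, the receptor that defines infiltrating monocytes, changed by 0.04 ± 0.086. The monocyte list stood at 5.83 to 5.99 in Astro-D2KO SE arrays, against 5.77 to 5.92 in Astro-D2KO saline arrays, and at 5.81 to 5.95 in control SE arrays, against 5.80 to 5.89 in control saline arrays. Of 10 neutrophil markers, S100a9 (0.23 ± 0.070) and Elane (0.18 ± 0.068) were called higher, and of 9 lymphocyte markers limma called 0, with 2 at an unadjusted p under 0.05, where 40.9% of all genes passed that level. Neutrophil markers stood at 4.89 to 4.96 in Astro-D2KO SE arrays, against 4.72 to 4.92 in Astro-D2KO saline arrays, and at 4.80 to 5.03 in control SE arrays, against 4.67 to 4.89 in control saline arrays. Lymphocyte markers stood at 5.07 to 5.10 in Astro-D2KO SE arrays, against 4.88 to 5.08 in Astro-D2KO saline arrays, and at 4.92 to 5.07 in control SE arrays, against 4.94 to 5.03 in control saline arrays. The lowest probe sets of these lists were those of Camp (mean 3.83), Retnlg (3.92), Cd3g (4.01) and S100a8 (4.07), and array values have no zero at which a gene could be called absent. Alternatives were run on the counts of these marker lists, and the calls of their single genes were not checked by them. The part of these cells in the changes of the 31 genes was not tested.

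Markers of the other cells of the hippocampus were counted against the same shares of all genes, 12.1% higher and 20.6% lower. Of 10 astrocyte markers 0 were called higher and 2 lower, of 12 hippocampal neuron markers 0 were called higher and 5 lower, and of 8 endothelial markers 4 were called higher and 2 lower (1 lower without both doubtful arrays). The 7 choroid plexus markers had no call and none at an unadjusted p under 0.05, with Ttr from 7.45 to 13.03 in Astro-D2KO SE arrays, against 8.84 to 12.66 in Astro-D2KO saline arrays, and from 9.08 to 12.74 in control SE arrays, against 7.90 to 13.09 in control saline arrays.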

How the data were processed

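The submitters' processing notes name RMA, a method of background correction, quantile normalisation and probe-set summary, for the deposited table. Its values were read as log2, a base inferred from their range of 1.70 to 13.79, since the deposited table does not state it. No genome build of the array is stated in the labels. Of 41345 probe sets, 23521 carried 1 gene symbol, 1814 several and 16010 none. The single-symbol probe sets gave 22180 genes, and of the 1082 genes with several probe sets the one with the highest mean over the 16 arrays was used. Entrez identifiers of 23328 probe sets matched RefSeq and changed 0 symbols. No dim gene was removed.

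The log2 values of all 16 arrays were fitted by group means with lmFit and eBayes of limma (version 3.58.1, R 4.3.3, default settings). The 6 contrasts were SE against saline in Astro-D2KO mice, in control mice and as the average of these, Astro-D2KO against control after SE and under saline, and the interaction. Tests were two-sided, with Benjamini-Hochberg adjustment over the 22180 genes within each contrast and a threshold of 0.05. A gene past it is called. Errors of changes are standard errors of the fit and intervals are 95%. Dio2 and the other Selplg probe set were tested by exact permutation of 4 arrays against 4 (70 arrangements). The fit was tested on simulated data. Precision is limited by the number of arrays, which carry no read depth.

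The 31 members, their division into roles and the other gene lists were chosen with earlier results of these data known, so no pattern here is independent evidence of them. All members are reported, with per-array values for those called in at least 1 contrast and for Trem2, Tmem119, Csf1r, Aif1 and Cd68. From each further list of microglial genes, the 3 largest rises and the 3 largest falls among the called genes of the averaged SE contrast are named. Some genes that the lists also name are not analysed here, and counts are over the measured genes. Replicate numbers did not pair the arrays over all genes: correlations of same-numbered arrays' deviations ranged from -0.286 to 0.338, and 1 of 16 exceeded 0.1. Single genes such as Fcrls could still follow the numbers. Alternatives were 2 other scalings, the mean of a gene's probe sets, dim genes left out, fits to the groups of a contrast alone, array weights, a replicate block, and leaving out arrays.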

Additional observations from a re-analysis of the deposited data

Results flagged for a closer look

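In each group of 4 arrays the highest or lowest value of each of the 31 genes and of Dio2 was set against the other arrays of the group by Dixon's criterion. Of 128 such groups, 9 held an array far from the others, and chance alone flags about 1 in 20. Dio2 in the array labelled Astro-D2KO SE replicate 1 was the highest of its group at 8.91, with the next array at 7.17.

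In control SE replicate 4, whose Dio2 level went against its label but was not flagged by this criterion, 3 members lay far from the other control SE arrays. Ly86 was high at 8.51 (next 7.76), Spi1, which encodes PU.1, was high at 6.65 (next 6.48), and Cd83 was low at 6.11 (next 6.51). Laptm5, a lysosomal membrane protein of haematopoietic cells, was high in Astro-D2KO SE replicate 3 at 6.84 (next 6.55). P2ry13 was low in control SE replicate 1 at 6.35 (next 6.50) and high in control saline replicate 4 at 7.33 (next 7.10), in groups whose other arrays lay very close together. Tmem119 was high in control saline replicate 2 at 6.61 (next 6.28), and Cd83 was low in control saline replicate 1 at 6.14 (next 6.26).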

How the results depend on the processing

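Of the 42 member changes called in the 3 SE contrasts, 31 remained called under every alternative that was run and 11 lost the call under at least 1; 0 changed direction. P2ry12, P2ry13, Selplg, Cd53, Cd86, Lilrb4a and Gpr84 remained called in both genotypes under all of them. With dim genes left out (a level of 6.26 in at least 4 arrays, which kept 11746 genes and 23 members), 5 members were called higher and 3 lower in control mice, because 8 members were no longer tested. Leaving out 1 array at a time, control mice had 5 to 8 members called higher (5 without control saline replicate 3) and 3 to 6 called lower (3 without control SE replicate 3), and Astro-D2KO mice 4 to 6 and 6 to 8. The genotype comparison after SE had 0 to 1 genes called higher and 0 to 1 called lower among all genes with 1 array left out. Without control SE replicate 4 and Astro-D2KO SE replicate 1 together it had 1 higher and 4 lower, the saline comparison had 1 lower and the interaction had 1 higher; the saline comparison also had 1 lower when its groups were fitted alone. The cause was not tested. With replicate numbers as a block, Astro-D2KO mice had 6 members called higher after SE, as Fcrls passed (0.71, adjusted p = 0.00757). Fcrls was then also called higher in the average (0.38, adjusted p = 0.0214), and the averaged call of Trem2 was lost (adjusted p = 0.061). Over all genes the numbers did not pair the arrays, but the levels of Fcrls followed them in every group.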

Other observations

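The saline arrays with the highest Lilrb4a, Gpr84 and Cd68 also had the 3 highest saline levels of 3 genes outside the microglial lists, chosen after their values were seen. Osmr, the oncostatin M receptor, stood at 7.28, 7.62, 6.62 and 8.69 in Astro-D2KO saline arrays and at 8.36, 7.89, 6.60 and 6.36 in control saline arrays. Timp1, a metalloproteinase inhibitor, stood at 5.52, 5.76, 4.35 and 7.87 in Astro-D2KO saline arrays and at 6.58, 6.00, 4.71 and 4.93 in control saline arrays. Cd44, a hyaluronan receptor, stood at 5.51, 6.14, 5.14 and 7.15 in Astro-D2KO saline arrays and at 6.85, 6.28, 5.23 and 5.25 in control saline arrays. Among the SE arrays, control SE replicate 4 had the highest Timp1 (8.32) and Cd44 (7.97).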
